A study of Mus musculus with 14 samples.

Results

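The genes described are the intracellular calcium release channels of the mouse, which are the ryanodine receptors Ryr1, Ryr2 and Ryr3 and the IP3 receptors Itpr1, Itpr2 and Itpr3. They were taken by gene symbol, and all 6 were found among the 23337 genes of the deposited count table. Poly(A) RNA was sequenced from heart muscle cells in 14 libraries. The 7 libraries labelled KO came from Rosa-Cas9GFP mice given AAV-Ryr2gRNA, an adeno-associated virus named for a guide RNA against Ryr2, and the 7 labelled Ctrl came from Rosa-Cas9GFP mice given AAV-Cre. Mice of both groups thus carried Cas9 and GFP at the Rosa locus. They were injected at postnatal day 1, and the cardiomyocytes were obtained at 4 weeks by Langendorff perfusion and fluorescence-activated sorting. The study asked what loss of RYR2 does to gene expression in these cells. Whether the guide virus also carried Cre, where in Ryr2 the guide cuts and which promoters the viruses use is information not given in the sources used, and the guide and the rest of the vector cannot be told apart. Separate animals are not stated for the libraries of a group, and the spread behind the p-values may therefore be partly technical.

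Release channels sit in the membrane of the endoplasmic reticulum, called the sarcoplasmic reticulum in muscle, and let stored calcium into the cytosol. Ryanodine receptors are very large tetramers. In heart muscle RYR2 is opened by the calcium that enters through L-type channels at each beat, and the calcium it releases drives contraction. RYR1 does this work in skeletal muscle, where it is coupled to the voltage sensor of the T-tubule, and RYR3 is expressed at low level in brain, smooth muscle and some skeletal muscles. IP3 receptors open when phospholipase C makes inositol 1,4,5-trisphosphate (IP3), for instance downstream of endothelin or adrenergic receptors. ITPR2 is the form best known from cardiomyocytes, where much of it lies at the nuclear envelope.

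Libraries held 5689335 to 11064715 counts in the KO group and 6313220 to 13165662 in the Ctrl group, and 11170 genes passed the filter on low counts and were tested. The cardiomyocyte markers (8 genes, among them Myh6 and Tnnt2) summed to 72132 to 99257 CPM (counts scaled to a library size of 1000000) in KO libraries and 87273 to 103072 CPM in Ctrl libraries. The cell type on the labels was thus borne out by its markers, and 4 of the 8 (Tnnt2, Tnni3, Myl2 and Pln) were called lower in the KO group (adjusted p under 0.05 in edgeR), as were 13.7% of all tested genes. The labels of 4 libraries (KO4, KO5, Ctrl4 and Ctrl5) end in S7 to S10, a number called library index here. What that number stands for is not stated in the labels. These 4 libraries stood apart from the other 10 on the second principal component, which carried 24.2% of the variance. Markers of 3 other cell types were higher in each of them than in any of the other 10. Endothelial markers (6 genes) summed to 514 to 641 CPM in those 4 libraries and 166 to 394 CPM in the others, and fibroblast markers (6 genes) to 539 to 1098 CPM and 144 to 329 CPM. Macrophage markers (6 genes) summed to 59.8 to 207 CPM in the same 4 libraries and 11.3 to 45.4 CPM in the others. Smooth muscle and pericyte markers overlapped, at 845 to 1260 CPM in the 4 and 587 to 1930 CPM in the others, as did atrial markers, at 390 to 1909 CPM and 270 to 2060 CPM. Within index 7 to 10 the groups differed in these sums too. Fibroblast markers summed to 1098 and 1008 CPM in KO and to 540 and 539 CPM in Ctrl, and macrophage markers to 207 and 133 CPM in KO and to 59.8 and 60.6 CPM in Ctrl. In the other 10 libraries fibroblast markers summed to 144 to 329 CPM in KO and 166 to 207 CPM in Ctrl, and macrophage markers to 26.3 to 45.4 CPM in KO and 11.3 to 29.7 CPM in Ctrl. The fold changes of the channel genes are therefore given also within these 4 libraries and without them.

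The 6 genes are long and lie on 5 chromosomes. In the coordinates of the deposited table (build mm10), Ryr2 spans chr13:11553103-12106945 on the minus strand, with 105 exons and 16813 bases of exonic sequence. Ryr3 lies at chr2:112631382-113030331 on the minus strand with 104 exons, and Ryr1 at chr7:29003340-29125151 on the minus strand with 106 exons. Itpr1 lies at chr6:108213096-108551116 on the plus strand with 62 exons, Itpr2 at chr6:146111480-146501912 on the minus strand with 57, and Itpr3 at chr17:27057304-27122223 on the plus strand with 58. No other gene of the table shared exon bases with any of the 6.

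The pore is built alike in both families. Each line shows 90 coding bases, 5′ to 3′ on the gene's own strand, from GENCODE M21 transcripts (GRCm38). The capitals mark the 18 bases that encode the selectivity filter of the pore, the part of the channel that calcium passes through, found as 3 glycines, then isoleucine or valine, then glycine and aspartate. They are shown because a stretch held in common bears on whether reads could be assigned to the wrong gene.
Ryr2: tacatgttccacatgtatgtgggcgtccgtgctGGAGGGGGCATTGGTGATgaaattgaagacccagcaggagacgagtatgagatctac
Ryr3: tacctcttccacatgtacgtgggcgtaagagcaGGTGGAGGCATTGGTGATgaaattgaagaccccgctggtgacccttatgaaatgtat
Ryr1: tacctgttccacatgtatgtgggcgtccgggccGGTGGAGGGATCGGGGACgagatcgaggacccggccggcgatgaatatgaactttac
Itpr1: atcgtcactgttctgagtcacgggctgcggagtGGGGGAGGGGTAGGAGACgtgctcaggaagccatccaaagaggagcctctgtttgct
Itpr2: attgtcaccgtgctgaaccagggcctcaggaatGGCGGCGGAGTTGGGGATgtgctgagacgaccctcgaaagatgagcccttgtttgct
Itpr3: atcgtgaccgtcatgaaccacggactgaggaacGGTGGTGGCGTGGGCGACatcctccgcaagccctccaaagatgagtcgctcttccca

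The Ryr2 stretch lies in exon 101 of 105 (chr13:11560588-11560677), that of Ryr3 in exon 100 of 104 (chr2:112636592-112636681) and that of Ryr1 in exon 102 of 106 (chr7:29005559-29005648). In the IP3 receptor genes the stretch crosses an intron, between exons 58 and 59 of Itpr1 (chr6:108518755-108519299), 53 and 54 of Itpr2 (chr6:146157121-146158961) and 54 and 55 of Itpr3 (chr17:27118598-27119229). Over these bases Ryr2 was 80% identical to Ryr3, with 72 of 90 bases the same, and 77.8% identical to Ryr1. The IP3 receptors were 66.7% to 71.1% identical to each other, and 35.6% to 46.7% identical to the ryanodine receptors. Within the 18 filter bases alone, Ryr2 and Ryr3 shared 16, and a ryanodine and an IP3 receptor gene shared 11 to 14. Across the whole transcripts, 0 stretches of 50 bases were shared between any of the 6 genes. Of the 16764 such stretches in Ryr2, 14 (0.0835%) also occurred in transcripts of other genes, on either strand. The share was highest for Ryr3, at 5.19%, all of it with Aven. How many of the reads counted for Ryr3 came from those stretches was not tested.

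Ryr2, the gene named by the guide, was lower in every KO library than in any Ctrl library. It had 371, 333, 301, 225, 324, 337 and 272 CPM in KO1 to KO7, and 763, 751, 732, 649, 602, 620 and 605 CPM in Ctrl1 to Ctrl7. The groups did not overlap, and the highest KO library stayed well below the lowest Ctrl library. Of all tested genes 4.71% had all KO libraries below all Ctrl libraries. Ryr2 averaged 309 ± 48.1 CPM in KO and 675 ± 71.4 CPM in Ctrl (SD, n = 7 each), so that 45.8% of its Ctrl level was left. In edgeR's quasi-likelihood test the log2 fold change was -1.13 (SE 0.0977, 95% interval -1.33 to -0.92, Benjamini-Hochberg adjusted p = 3.3e-07). Genes were called at an adjusted p under 0.05, and 28.2% of all tested genes were called, 14.5% higher and 13.7% lower. Over all 3432 divisions of the libraries into groups of 7, an exact permutation test (two-sided) gave p = 0.00058, the smallest it can give.

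**Figure D1:**
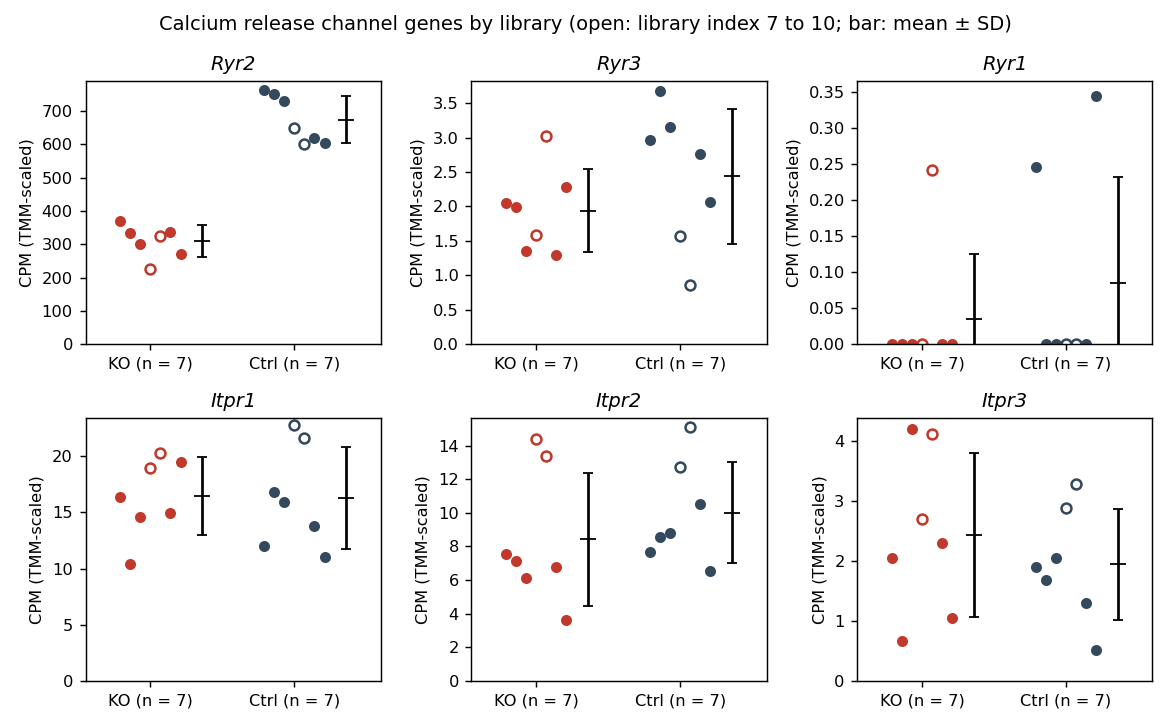
CPM of each release channel gene (y axis, scaled per gene from 0) in the 7 KO and the 7 Ctrl libraries, with 1 point per library in replicate order, open points for library index 7 to 10 and bars for mean ± SD. Ryr2 is the only panel in which KO (225 to 371 CPM) and Ctrl (602 to 763 CPM) do not overlap.

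Reads over the exons of Ryr2 do not tell edited from unedited transcripts, and in RNA pooled from many cells, fewer cells with the transcript and less of it per cell cannot be told apart. The fall was alike in both sets of libraries. Within index 7 to 10 Ryr2 had 225 and 324 CPM in KO and 649 and 602 CPM in Ctrl (log2 fold change -1.22, edgeR adjusted p = 0.00067), and 6.59% of the genes tested in those 4 libraries were called lower. In the other 10 libraries the fall was of like size (log2 fold change -1.11). The authors' deposited table gives a log2 fold change of -1.14 for Ryr2, with an adjusted p of 1.4e-26. There, 24.4% of the genes with an adjusted p had one under 0.05.

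Abundant genes were often lower in the KO group. Of the 200 tested genes within 0.5 log2 CPM of Ryr2, 42% were called lower and 11% higher, with a median log2 fold change of -0.16. Among the 262 tested genes at least as abundant as Ryr2, itself included, it alone fell by that much or more. Across all tested genes its log2 fold change was the 43rd lowest, and by p it ranked 74th. Of the 445 tested genes with at least 8331 exonic bases, the length of Itpr2, 20.9% were called and the median log2 fold change was 0.00, a difference from all genes that was not tested.

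The other ryanodine receptors were scarce in both groups. Ryr3 had 2.05, 1.99, 1.36, 1.58, 3.02, 1.29 and 2.28 CPM in KO1 to KO7, and 2.96, 3.68, 3.15, 1.57, 0.854, 2.76 and 2.07 CPM in Ctrl1 to Ctrl7. These rest on 6 to 36 counts per library, and the groups overlapped widely. Ryr3 averaged 1.94 ± 0.604 CPM in KO and 2.44 ± 0.985 CPM in Ctrl (SD, n = 7 each), and the log2 fold change of -0.31 did not pass (SE 0.286, 95% interval -0.92 to 0.29, edgeR adjusted p = 0.46). In 6 of 7 KO libraries it lay below the Ctrl median.

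The value for Ryr3 depended on which libraries were used. Without index 7 to 10 it averaged 1.79 ± 0.443 CPM in KO and 2.93 ± 0.587 CPM in Ctrl (SD, n = 5 each), and it was called lower (log2 fold change -0.69, edgeR adjusted p = 0.049), as were 11.6% of the genes tested in those 10 libraries. Within index 7 to 10 it had 1.58 and 3.02 CPM in KO and 1.57 and 0.854 CPM in Ctrl, and the log2 fold change was 0.90 (adjusted p = 0.29 in the same test). The difference between the 2 sets had an unadjusted p of 0.0056, but adjusted over all genes it was 1.0, and 0 genes were called for such a difference. The part that the other cells in those libraries play in this was not tested.

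Ryr1, the skeletal muscle channel, was almost absent. It had 2 counts in the KO group, both in KO5, and 5 in the Ctrl group, 3 in Ctrl1 and 2 in Ctrl7. No library held more than 3 counts, the gene did not pass the filter, and no fold change is given. Skeletal muscle markers (6 genes) were near 0 as well, with a summed level of 0.967 to 2.30 CPM in KO libraries and 0.812 to 4.41 CPM in Ctrl libraries. Neither Ryr3 nor Ryr1 was thus called higher in KO. For Ryr3 the upper bound of the fold over all 14 libraries was 1.22, and for Ryr1 nothing could be tested.

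None of the IP3 receptor genes was called, and 0 of the 3 had an unadjusted p under 0.05 in edgeR or a call in DESeq2. Itpr1, the most abundant of them, had 16.4, 10.5, 14.6, 19.0, 20.3, 14.9 and 19.5 CPM in KO1 to KO7, and 12.01, 16.9, 15.9, 22.8, 21.6, 13.8 and 11.05 CPM in Ctrl1 to Ctrl7. The groups covered nearly the same range, and the highest libraries were those with index 7 to 10 and KO7. Itpr1 averaged 16.5 ± 3.46 CPM in KO and 16.3 ± 4.54 CPM in Ctrl (SD, n = 7 each, log2 fold change 0.02, SE 0.175, edgeR adjusted p = 0.96). The 95% interval of the fold ran from 0.783 to 1.31. The log2 fold change was 0.14 without index 7 to 10 and -0.22 within it, and neither passed.

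Itpr2, the IP3 receptor best known from heart muscle cells, had 7.58, 7.15, 6.10, 14.4, 13.4, 6.75 and 3.60 CPM in KO1 to KO7, and 7.65, 8.59, 8.83, 12.7, 15.1, 10.6 and 6.56 CPM in Ctrl1 to Ctrl7. In both groups the libraries numbered 4 and 5, which carry index 7 to 10, were the highest. It averaged 8.43 ± 3.97 CPM in KO and 9.999 ± 3.01 CPM in Ctrl (SD, n = 7 each, log2 fold change -0.26, SE 0.269, edgeR adjusted p = 0.52), with a 95% interval of the fold from 0.564 to 1.24. Without index 7 to 10 the log2 fold change was -0.46 (adjusted p = 0.12), and within index 7 to 10 it was -0.04.

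Itpr3 was the least abundant IP3 receptor and the most variable. It had 2.05, 0.662, 4.20, 2.69, 4.11, 2.30 and 1.05 CPM in KO1 to KO7, and 1.89, 1.69, 2.05, 2.89, 3.27, 1.30 and 0.518 CPM in Ctrl1 to Ctrl7, from 3 to 34 counts per library. The KO range covered nearly the whole Ctrl range. The means were 2.44 ± 1.37 CPM in KO and 1.94 ± 0.930 CPM in Ctrl (SD, n = 7 each, log2 fold change 0.29, SE 0.394, edgeR adjusted p = 0.63). The 95% interval of the fold, 0.688 to 2.18, was the widest of the 5 tested genes, and a change within those bounds could not be told from none. Its SE of 0.394 stood above the median SE of 0.272 over the tested genes within 0.5 log2 CPM of it. The log2 fold change was 0.37 without index 7 to 10 and 0.13 within it.

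**Figure D2:**
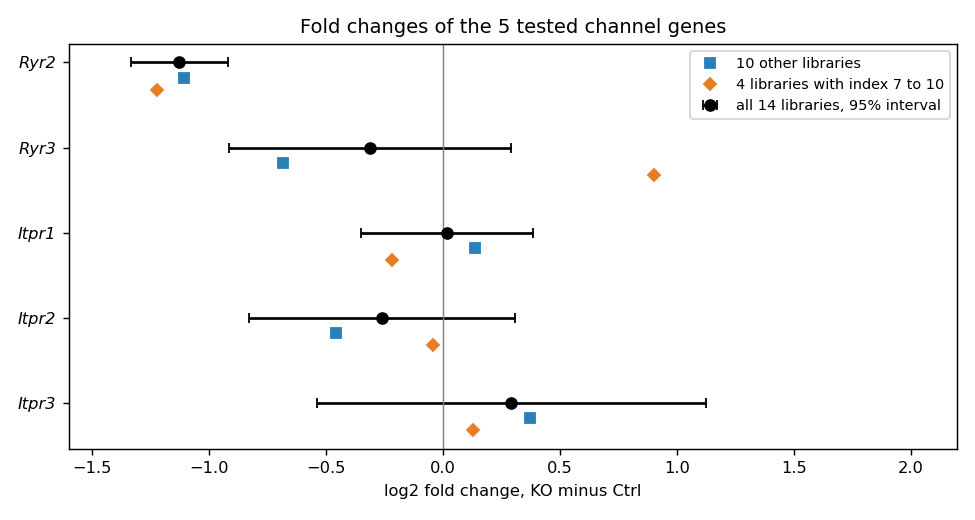
Log2 fold change, KO minus Ctrl (x axis), of the 5 tested release channel genes (y axis), with the 95% interval over all 14 libraries in black and the values without library index 7 to 10 (squares) and within it (diamonds). Ryr2 lies between -1.22 and -1.11 in all 3, while Ryr3 lies at -0.31, -0.69 and 0.90.

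The share of genes of a like level that were called depends on how many of them change as well as on what could be seen. Of the tested genes within 0.5 log2 CPM of Itpr1, 22.8% were called, and of those near Itpr2, 19.7%. Near Itpr3 it was 15.4%, and near Ryr3 15.3%. As for Itpr3 above, the SE of each other gene stood above the median SE of its like genes. It was 0.175 beside 0.113 for Itpr1, 0.269 beside 0.142 for Itpr2 and 0.286 beside 0.270 for Ryr3. These shares may thus overstate what could be seen for the channel genes. With a term for library index 7 to 10 in the edgeR test, the SE was 0.128 for Itpr1 and 0.156 for Itpr2. The log2 fold changes were 0.04 and -0.30 (adjusted p = 0.84 and 0.15), and neither was called. The SEs of Itpr3 and Ryr3 were lower with the term as well, and they were not called either. Median SEs of like genes were not taken with the term. The authors' deposited table lists log2 fold changes of 0.01 for Itpr1, -0.27 for Itpr2, 0.30 for Itpr3 and -0.33 for Ryr3, none of them with an adjusted p under 0.05, and no adjusted p for Ryr1.

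To set the genes beside each other, levels were divided by exonic length and given as CPM per kilobase of exon (RPKM). Ryr2 had 18.4 ± 2.86 RPKM in KO and 40.1 ± 4.25 RPKM in Ctrl (SD, n = 7 each here and below), and by mean RPKM it ranked 3316th of all genes in KO and 1710th in Ctrl. Itpr1 followed with 1.67 ± 0.351 RPKM in KO and 1.65 ± 0.460 RPKM in Ctrl, and Itpr2 with 1.01 ± 0.476 RPKM in KO and 1.20 ± 0.361 RPKM in Ctrl. Itpr3 had 0.271 ± 0.152 RPKM in KO and 0.216 ± 0.103 RPKM in Ctrl, and Ryr3 had 0.126 ± 0.0392 RPKM in KO and 0.158 ± 0.0639 RPKM in Ctrl. Ryr1 was last.

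The order of the genes by mean RPKM was the same in both groups. Ryr2 was above Itpr1 in 7 of 7 libraries of each group with no overlap of their ranges. Itpr1 was above Itpr2 in 7 of 7 libraries of each group, although their ranges over libraries overlapped. Itpr2 exceeded Itpr3 in 7 of 7 libraries of each group too. Itpr3 and Ryr3 were not separated, since Itpr3 was the higher in 5 of 7 KO and 4 of 7 Ctrl libraries.

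**Figure D3:**
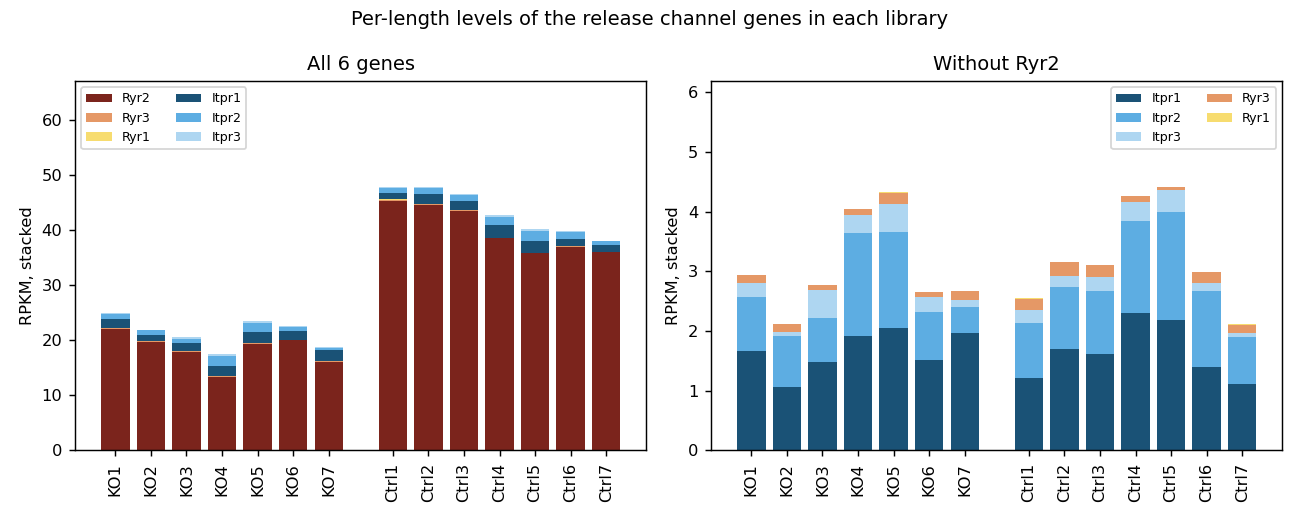
Stacked RPKM of the release channel genes (y axis) in each library (x axis), for all 6 genes on the left and without Ryr2 on the right, on separate scales. The Ryr2 segment is shorter in every KO library, and on the right the libraries KO4, KO5, Ctrl4 and Ctrl5 have the tallest stacks.

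The summed level of all 6 genes was 21.5 ± 2.66 RPKM in KO and 43.4 ± 4.11 RPKM in Ctrl, and the IP3 receptors contributed 2.95 ± 0.786 RPKM in KO and 3.07 ± 0.888 RPKM in Ctrl. The shares are given as a description, with no test. Ryr2 made up 85.4% ± 4.67 of the summed RPKM in KO and 92.5% ± 2.16 in Ctrl, and the IP3 receptors 14.01% ± 4.60 in KO and 7.14% ± 2.28 in Ctrl. The groups overlapped in this share, with 9.08% to 22.6% in KO libraries and 4.89% to 10.8% in Ctrl libraries. Ryr2 remained the main release channel transcript in every KO library, at 3.30 to 9.35 times the sum of the other 5, against 8.10 to 17.8 times in Ctrl libraries. Among the IP3 receptors, Itpr1 held 57.6% ± 9.95 in KO and 54.0% ± 3.42 in Ctrl, and KO7 had the highest Itpr1 share, at 78.2%.

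Beside library index the IP3 receptor levels were as follows. Itpr2 had 12.7 to 15.1 CPM in the 4 libraries with index 7 to 10 and 3.60 to 10.6 CPM in the other 10, and Itpr1 had 19.0 to 22.8 CPM and 10.5 to 19.5 CPM in the same sets, where only KO7 reached into the range of the 4. Itpr3 overlapped, at 2.69 to 4.11 CPM in the 4 and 0.518 to 4.20 CPM in the other 10, with KO3 above all of the 4. The endothelial, fibroblast and macrophage markers were higher in the same 4 libraries, as given above, and the part that RNA of those cells plays in the IP3 receptor levels, and in the fold changes within index 7 to 10, was not tested. Between the groups, 0 of 6 endothelial and 0 of 5 tested fibroblast markers were called, with 0 at an unadjusted p under 0.05 in edgeR and 0 called by DESeq2. All 5 fibroblast markers had a log2 fold change above 0, from 0.11 to 0.96 with a median of 0.72. Their SEs were 0.42 to 0.52, and with that spread equal levels cannot be read from the missing calls. The endothelial markers had log2 fold changes of -0.26 to 0.55, with a median of -0.14. Macrophage markers summed to 26.3 to 207 CPM in KO and 11.3 to 60.6 CPM in Ctrl, with 2 of 6 called higher (Emr1 and C1qb), 4 of 6 at an unadjusted p under 0.05 in edgeR and 3 called by DESeq2. All 6 had a log2 fold change of at least 1.02. The share of all tested genes at an unadjusted p under 0.05 was not taken. Of the smooth muscle and pericyte markers 2 of 6 (Acta2 and Cspg4) were called higher, at 1095 to 1930 CPM summed in KO and 587 to 972 CPM in Ctrl. Acta2 alone made up most of that sum, with means of 1211 CPM in KO and 696 CPM in Ctrl. Myh11 (log2 fold change 0.33), Rgs5 (0.06), Pdgfrb (-0.11) and Kcnj8 (-0.24) were not called. The atrial list had 1 of 4 called higher, Nppa, which averaged 1349 CPM in KO and 468 CPM in Ctrl, most of the atrial sum. Sln (-0.75), Myl7 (-0.67) and Myl4 (-0.07) were not called.

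**Figure D4:**
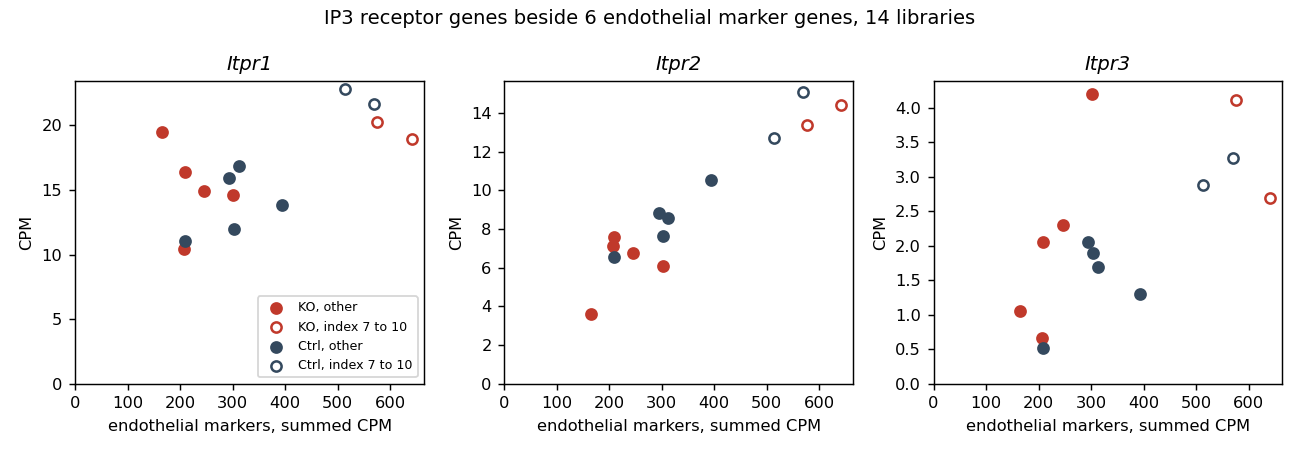
CPM of Itpr1, Itpr2 and Itpr3 (y axes) against the summed CPM of 6 endothelial marker genes (x axes), 1 point per library, open for library index 7 to 10. The 4 open points lie at 514 to 641 CPM of endothelial markers and hold the 4 highest Itpr2 values, 12.7 to 15.1 CPM.

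Deviations from the group means show which genes went along with a channel over the libraries, with what they share (library, depth and the index sets) left in. Those most like Ryr2 were Ank2, which encodes ankyrin-B, a membrane adaptor of cardiomyocytes, with a Pearson r of 0.94, the myosin heavy chain gene Myh6 (0.93) and the talin gene Tln2 (0.93). Without index 7 to 10 these values were 0.94, 0.87 and 0.93. For all values over 10 libraries the deviations were still taken from the means of all 7 libraries of a group. An offset between the groups can therefore remain in them. None of these 3 genes was called between the groups, with log2 fold changes of -0.28, -0.06 and -0.05. The genes most like Itpr1 were the zinc finger gene Zfp862 (r 0.92), the snoRNA host gene Snhg5 (0.89) and Dock10 (0.87), and those most like Ryr3 were Zfr2 (0.88), Zfp677 (0.86) and Trappc10 (0.84), which for 10 libraries became 0.83, 0.92 and 0.74, and 0.82, 0.69 and 0.75. Among the channels themselves Itpr1 and Itpr3 had the highest r over 14 libraries, 0.66. Over 10 libraries theirs was 0.42, and Ryr2 and Itpr2 had the highest, 0.55, beside -0.25 over 14.

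Proteins that bind or regulate ryanodine receptors were taken as a list of 29 genes, of which 27 were tested. Of these, 2 were higher and 8 lower in KO, where 14.5% of all tested genes were higher and 13.7% lower, shares that also stand beside the counts of the lists that follow. The list had a median log2 fold change of -0.05, beside 0.01 over all tested genes. Mean levels of its tested genes in Ctrl ran from 4.38 CPM (Ppp1r9b) to 2333 CPM (Casq2). Near the level of Ryr2 42% of genes were called lower, as given above, and the part of level in the list count was not tested. Casq1, the calsequestrin isoform of fast skeletal muscle, which buffers calcium inside the store, had a lowest, median and highest level of 185, 217 and 256 CPM in KO and 51.5, 99.1 and 127 CPM in Ctrl. All 7 KO libraries were above all Ctrl libraries (log2 fold change 1.21, SE 0.139). Over all tested genes, 10.5% had groups that did not overlap in either direction. That share also stands beside the list genes without overlap named below. Tmem38b, a potassium channel of the store membrane (TRIC-B), had 30.2, 33.5 and 45.4 CPM in KO and 21.6, 25.8 and 30.9 CPM in Ctrl (0.43, SE 0.104).

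Lower in KO was Dhrs7c, a short-chain dehydrogenase of the sarcoplasmic reticulum, at 61.1, 73.1 and 95.7 CPM (lowest, median and highest) in KO and 104, 109 and 125 CPM in Ctrl, with no overlap. Jph1, a junctophilin that tethers the store to the surface membrane, did not overlap either, at 12.1 to 19.3 CPM in KO and 19.5 to 23.6 CPM in Ctrl. The log2 fold changes were -0.53 (SE 0.1003) for Dhrs7c and -0.43 (SE 0.1001) for Jph1. Prkaca, the catalytic subunit of protein kinase A, which phosphorylates RYR2, changed by -0.39, and Hrc, the histidine-rich calcium-binding protein of the store, by -0.32. S100a1, Asph, Prkar2a and Pde4d were the other 4 called lower. Fkbp1b, the calstabin of RYR2, and Sypl2 did not pass the filter.

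Of the IP3 receptor partners, 27 genes, 24 were tested, and 5 were higher and 2 lower, with a median log2 fold change of 0.09. Itprip, a protein named for its interaction with IP3 receptors, had a lowest, median and highest level of 35.4, 46.2 and 63.0 CPM in KO and 28.5, 30.6 and 34.2 CPM in Ctrl (log2 fold change 0.64, SE 0.106), with all KO libraries above all Ctrl libraries. Bcl2, which binds IP3 receptors and restrains cell death, had 5.43, 6.94 and 11.4 CPM in KO and 2.07, 4.10 and 6.30 CPM in Ctrl (0.99, SE 0.225). The calcium sensor Ncs1 (0.46), Grina (0.29) and Erlin1 (0.38), part of the complex that sends active IP3 receptors to degradation, were also higher. Erlin1 is named only to complete the count, after its value was seen.

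The 2 partners that fell were Vdac1 and Homer1. Vdac1, the mitochondrial outer membrane channel that is linked to IP3 receptors at contact sites, had 899, 1024 and 1126 CPM (lowest, median and highest) in KO and 1155, 1280 and 1296 CPM in Ctrl (log2 fold change -0.29, SE 0.0572). The scaffold Homer1 had 60.0, 71.7 and 81.7 CPM in KO and 84.5, 93.2 and 111 CPM in Ctrl (-0.40, SE 0.0820). Neither gene's groups overlapped.

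Among the genes that lead to IP3, 21 of 26 were tested, and 3 were higher and 3 lower, with a median log2 fold change of -0.10. Ednra, the endothelin A receptor, which signals through Gq and phospholipase C, had a lowest, median and highest level of 111, 163 and 194 CPM in KO and 85.1, 88.2 and 96.6 CPM in Ctrl, without overlap (log2 fold change 0.79, SE 0.105). The phospholipases Plcg2 (0.55) and Plcd1 (0.41) were higher, also without overlap between groups. Adra1a, an alpha-1 adrenergic receptor, had 6.01, 7.59 and 14.6 CPM in KO and 9.49, 13.2 and 24.4 CPM in Ctrl (-0.83, SE 0.222). Plce1, a phospholipase C that Ras proteins activate, changed by -0.50 and Gnaq, the alpha subunit of Gq, by -0.26 (edgeR adjusted p = 0.039, lost on leaving out any of 9 libraries). Receptors of the same pathway thus differed in opposite directions, and Agtr1b and Plch2 had 0 counts in all libraries.

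Enzymes that remove IP3 or turn over inositol phosphates showed 1 higher and 2 lower of 11 tested in a list of 12, with a median of -0.02. Inpp5b, an inositol polyphosphate 5-phosphatase, had 12.9, 13.96 and 18.04 CPM in KO and 7.60, 10.96 and 12.8 CPM in Ctrl (lowest, median and highest, log2 fold change 0.46, SE 0.114). Impa2, which frees inositol from its monophosphate, changed by -0.44 and the phosphatase Ocrl by -0.27 (edgeR adjusted p = 0.037, lost on leaving out any of 10 libraries). Ipmk was at -0.37 (edgeR adjusted p = 0.055), Itpkc at 0.19 and Ippk at 0.14, and none of these 3 passed. The outcome for Ipmk depended on the setting, since it was called lower by DESeq2 and without index 7 to 10, where its log2 fold change was -0.45, and also on leaving out KO5, Ctrl6 or Ctrl7 (edgeR adjusted p = 0.013 to 0.11 over the 14 libraries left out in turn). Ippk was called higher when scaled by total counts.

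Of 4 tested other intracellular calcium channels in a list of 8, Pkd2, polycystin 2, was higher, at 20.1, 23.99 and 35.4 CPM in KO and 11.9, 18.4 and 21.2 CPM in Ctrl (log2 fold change 0.56, SE 0.149). The lysosomal channels Tpcn1 (0.37) and Mcoln1 (-0.05) and the load-activated channel Tmco1 (0.08) did not pass. In the list of 8 genes for store-operated entry, which refills the stores from outside, 0 of the 6 tested were called. By edgeR 1 had an unadjusted p under 0.05, Tmem110, a regulator of junctions between store and plasma membrane, and DESeq2 called 0. The log2 fold changes were -0.27 for Stim1, 0.13 for Stim2, -0.13 for Orai1, 0.03 for Orai3, 0.04 for Tmem66 and -0.27 for Tmem110. Scaled by total counts the sign of Orai1 and Mcoln1 turned, and Tmco1 and Tmem66 were called higher.

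**Figure D5:**
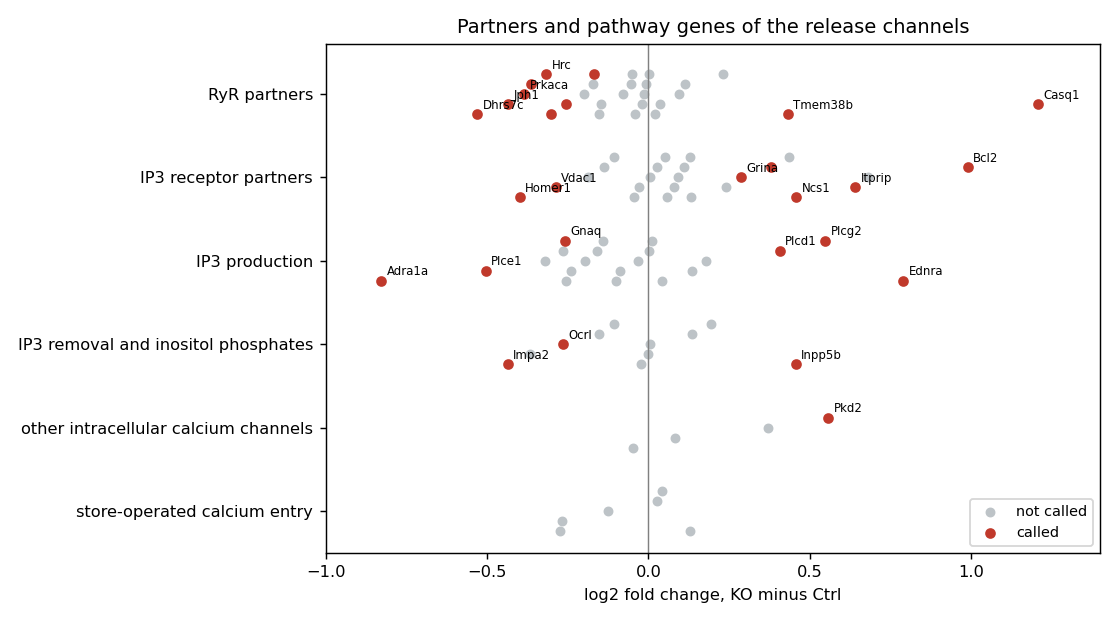
Log2 fold change, KO minus Ctrl (x axis), of the tested genes of 6 lists (y axis, points spread vertically for legibility), red where called at an adjusted p under 0.05. Casq1 lies farthest to the right at 1.21 and Adra1a farthest to the left at -0.83.

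The 6 lists together held 110 genes, of which 93 were tested, 12 called higher and 15 called lower. That is 29% called, next to 28.2% of all tested genes, a share close to that background. In the same libraries, as given above, 4 of 8 cardiomyocyte markers were lower in KO and 2 of 6 macrophage and 2 of 6 smooth muscle and pericyte markers were higher, and their part in these counts was not tested. Without index 7 to 10, 19 of the 22 called list genes that the naming rule covers kept their call. Grina (log2 fold change 0.26), Adra1a (-0.65) and Gnaq (-0.28) did not pass there. Within index 7 to 10 alone 12 of the 22 passed, and none of the 22 changed sign in either set. The 10 that did not pass there, with 2 libraries a group, were Hrc, Jph1, Tmem38b, Ncs1, Grina, Plcd1, Gnaq, Inpp5b, Ocrl and Impa2. The 22 genes were picked by p over all 14 libraries, so a call kept in part of them is no independent support. Casq1 had log2 fold changes of 1.30 in the other 10 libraries and 0.98 within index 7 to 10, and Ednra had 0.84 and 0.61. In the same sets Ncs1 had 0.57 and 0.10, and Plcd1 had 0.49 and 0.14.

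The number of calls over all genes depended on whether a scaling factor was used. With scaling by trimmed means (TMM) 1621 genes were higher and 1528 lower, and with total counts alone 3064 were higher and 852 lower, where the median log2 fold change of all genes was 0.15 in place of 0.01. Scaling by relative log expression gave 1579 higher and 1566 lower, and scaling by upper quartiles gave 1605 and 1634. Ryr2 was called lower under each scaling.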

How the data were processed

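The authors deposited raw read counts, as whole numbers, for 23337 genes in 14 libraries. STAR, featureCounts, DESeq and DESeq2 and the build mm10 are named in the submitters' processing notes, with versions and strand setting not given in the sources used. Per the labels, libraries were made with SMART-Seq v4 and Nextera XT, which carry no molecular identifiers and do not mark strand. Per the file headers, the authors' own comparison lists a mean signal (counts over size factors), log2 fold changes, p-values and a score (the Wald statistic), and it is quoted only where named. Exonic length, a score in base pairs, was taken from the deposited file.

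Counts were tested with edgeR 4.0.16 (R 4.3.3) by the quasi-likelihood test with filterByExpr and TMM scaling, two-sided, with Benjamini-Hochberg adjustment over 11170 genes. No covariate was used, and all 7 KO and 7 Ctrl libraries entered. Log2 fold changes are KO minus Ctrl. CPM and RPKM used TMM-scaled library sizes. The biological coefficient of variation was 16.2%. DESeq2 1.42.0, other scalings, no filter, the replicate number as a block, and leaving out libraries were alternatives. The edgeR script was tested on simulated data. The interaction with library index and the likeness values without index 7 to 10 were added after the data were seen.

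The 6 genes and the lists were chosen with earlier results of these data known. Named list genes were up to 6 tested genes per list with the smallest p. Likeness used deviations of log2 CPM (prior count 2) from the group means and left out gene models without a proper name. In the table Tmem66, Tmem110 and Emr1 stand for Saraf, Stimate and Adgre1.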

Additional observations from a re-analysis of the deposited data

Results flagged for a closer look

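In 6 of 78 sets of 7 libraries examined (the channel genes and the named list genes, in each group) the highest or lowest library lay far from the rest by Dixon's criterion, which chance meets in about 1 of 20 sets. None of the 6 was a release channel gene.

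Adra1a reached 14.6 CPM in KO2, where the next KO library had 9.31 CPM. Ocrl reached 20.5 CPM in KO6 and 17.0 CPM in the next KO library. Tpcn1 had 5.29 CPM in KO3 and 3.16 CPM in the next KO library. In the Ctrl group Prkaca had 614 CPM in Ctrl1 and 504 CPM in the next, and Impa2 had 34.7 CPM in Ctrl1 and 27.9 CPM in the next. Plce1 was lowest in Ctrl7, at 30.9 CPM, below the 45.1 CPM of the next Ctrl library.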

How the results depend on the processing

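Ryr2 kept its direction and its call in all 9 other settings (log2 fold change -1.22 to -0.995) and with each library left out (-1.18 to -1.05). With total counts and no scaling factor, 3064 of the 11170 tested genes were higher and 852 lower. In that setting 2 of 4 tested other calcium channels and 1 of 6 store-operated entry genes were called. Mcoln1 (0.084) and Orai1 (0.0051) turned sign. DESeq2 gave 1617 higher and 1639 lower. Without index 7 to 10, Ryr3 was called (-0.69), and Stim2 (-0.046) and Orai3 (-0.029) turned sign.

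Within index 7 to 10 alone, with 2 libraries a group, 689 genes were higher and 777 lower, and Ryr3 (0.90), Itpr1 (-0.22), Itpkc (-0.15) and Tmem66 (-0.00088) turned sign. There 4 ryanodine receptor partners, 4 IP3 receptor partners and 0 IP3 removal genes were called, from lists of 29, 27 and 12 genes. The 689 higher and 777 lower genes were out of 11798 tested in those libraries. Mean RPKM was 1.67 (KO) and 1.67 (Ctrl) for Itpr2, and in Ctrl 0.0788 for Ryr3, 2.25 for Itpr1 and 0.343 for Itpr3. Shares of the summed RPKM were 79.2% (KO) and 89.5% (Ctrl) for Ryr2 and 8.36% (KO) and 4.03% (Ctrl) for Itpr2, and in Ctrl 0.188% for Ryr3, 5.42% for Itpr1 and 0.827% for Itpr3. Not divided by length, the share was 91.1% (KO) and 95.6% (Ctrl) for Ryr2, 4.999% (KO) and 2.33% (Ctrl) for Itpr1 and 1.44% in Ctrl for Itpr2. The cause of these differences was not tested.

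With each library left out, 1433 to 1664 genes were higher and 1284 to 1527 lower. The log2 fold change ran from -0.46 to -0.19 for Ryr3, -0.056 to 0.12 for Itpr1, -0.43 to -0.12 for Itpr2 and 0.10 to 0.46 for Itpr3, none called, and from -0.0095 to 0.063 for Orai3 and -0.037 to 0.20 for Stim2. Gnaq lost its call without KO2, KO3, KO5, KO6, KO7, Ctrl1, Ctrl2, Ctrl3 or Ctrl4, and Ocrl without KO1, KO2, KO3, KO4, KO7, Ctrl1, Ctrl2, Ctrl3, Ctrl6 or Ctrl7 (adjusted p over all 14, 0.021 to 0.078 for Gnaq and 0.010 to 0.084 for Ocrl).

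With the replicate number as a block, 1922 genes were higher and 1848 lower, and the log2 fold change was -1.14 for Ryr2, -0.29 for Ryr3, 0.03 for Itpr1, -0.29 for Itpr2 and 0.30 for Itpr3. The SE with the block was 0.134 for Itpr2 (edgeR adjusted p = 0.11) and 0.304 for Ryr3 (0.50 in the same test). Deviations of same-numbered libraries correlated at 0.0614 to 0.533, over 0.1 in 6 of 7 pairs, and 2 of 7 KO libraries were closest to their own number, so the numbers were not taken as pairs. Ipmk was called lower with the block, and with a term for index 7 to 10. Ryr3 and Itpr3 rest on 3 to 36 counts per library, and Ryr1, with at most 3 counts in a library, was not tested.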
